A study of Homo sapiens with 3 samples.

Results

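The genes described here belong to a pair of linked stress programmes of the cell, the amino acid response driven by the transcription factor ATF4 and the unfolded protein response of the endoplasmic reticulum. Members were chosen by name, from a list of 48 mouse gene symbols: 27 form the ATF4 arm and 21 the unfolded protein response arm. Of these, 47 had a row in the deposited table of 13936 genes, 26 in the ATF4 arm and 21 in the other; cystathionine beta-synthase (Cbs) was not analysed here. All 47 passed the filter on low values (a mean of at least 10 scaled counts) and were tested.

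RNA came from AB12, a mouse malignant mesothelioma cell line, grown in RPMI medium with serum. The study set cells with a short hairpin labelled shNF2 (2 libraries, numbered 20 and 21 in the labels) against cells with one labelled shSC (1 library, taken as the control hairpin). Its gene product, merlin, is a tumour suppressor that feeds into Hippo signalling. What 20 and 21 mean is not in the labels, and no label ties the libraries to separate cultures; p-values therefore reflect library-to-library spread alone, possibly technical. Human is the labelled organism, but the identifiers are those of mouse genes and mm10 is named by the submitters' processing notes; values were treated as mouse.

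When unfolded proteins build up in the endoplasmic reticulum, the sensors PERK, IRE1 and ATF6 are activated. IRE1, encoded by Ern1, splices the mRNA of Xbp1, and cleaved ATF6 and spliced XBP1 then raise the transcription of chaperones and of the machinery that removes misfolded proteins. PERK phosphorylates the initiation factor eIF2alpha, as do other kinases that sense amino acid shortage, viral RNA or haem shortage, and this favours translation of ATF4. ATF4 then induces genes for amino acid synthesis, amino acid import and tRNA charging. Much of this signalling runs through phosphorylation, splicing, cleavage and translation, none of which gene-level read counts show.

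Values are scaled counts as deposited, that is, reads per gene after division by a library factor. Reads in genes numbered 25837151 in library 20, 26829163 in library 21 and 29532600 in shSC. Nf2 (ENSMUSG00000009073.16), the targeted gene, had 486 and 458 scaled counts in the shNF2 libraries 20 and 21, against 1539 in shSC, a difference of -1.70 ± 0.24 on the log2 scale (SE; adjusted p = 0.00555 in limma). Both libraries labelled shNF2 were thus below shSC in Nf2, the gene named in their labels. Of 10 mesothelial markers 5 had a row (Msln, Krt7, Krt8, Krt18 and Krt19), with summed levels of 39947 and 33759 in shNF2 and 43900 in shSC, while Wt1, Upk3b, Lrrn4, Pdpn and Calb2 were not analysed here. Krt7 passed the test, with 290 and 183 scaled counts in shNF2 against 49.7 in shSC (limma adjusted p = 0.0119). Msln had a log2 fold change of 0.34, while Krt8 (-0.37), Krt18 (-0.36) and Krt19 (-0.86, adjusted p = 0.0996) lay below shSC in both libraries. Of 10 macrophage markers 4 had a row (summed 8559 and 8070 in shNF2, 9307 in shSC), most of it from Mrc1 and Cd14. Cd14 was below shSC in both libraries (log2 fold change -0.64) and Lyz2 above it, with 260 and 108 scaled counts in shNF2 against 56.5 in shSC (1.55, limma adjusted p = 0.191). Of 8 fibroblast markers 3 had one (22.0 and 90.4 in shNF2, 14.6 in shSC), and none of 6 endothelial markers did. The fibroblast sum in library 21 was mostly Acta2, with 71 reads there, against 1 in library 20 and 1 in shSC. The part of these levels in the results was not tested.

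No member of either arm could be told from shSC by the test used. Of 47 members, 0 passed the test in either direction (limma, Benjamini-Hochberg adjusted p under 0.05), in a comparison where 0.843% of the 12813 genes tested passed. edgeR and DESeq2 on the recovered reads also called 0 members, where they called 0.632% and 0.765% of all genes. At an unadjusted p under 0.05 there were 3 members, all lower in shNF2 and all in the unfolded protein response arm: Dnajb9, Ern1 and Sec61b. Over all genes 9.27% were under that limit, against 6.38% of the members. Among all genes 4.91% were under it and lower in shNF2, near that share of the members pooled over both arms. By arm, the share was 14.3% of the 21 unfolded protein response members and 0% of the 26 ATF4 members. After correction for length and GC, 5 and 2 members of these arms were under that limit, where 12.1% of all genes were.

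**Figure D1:**
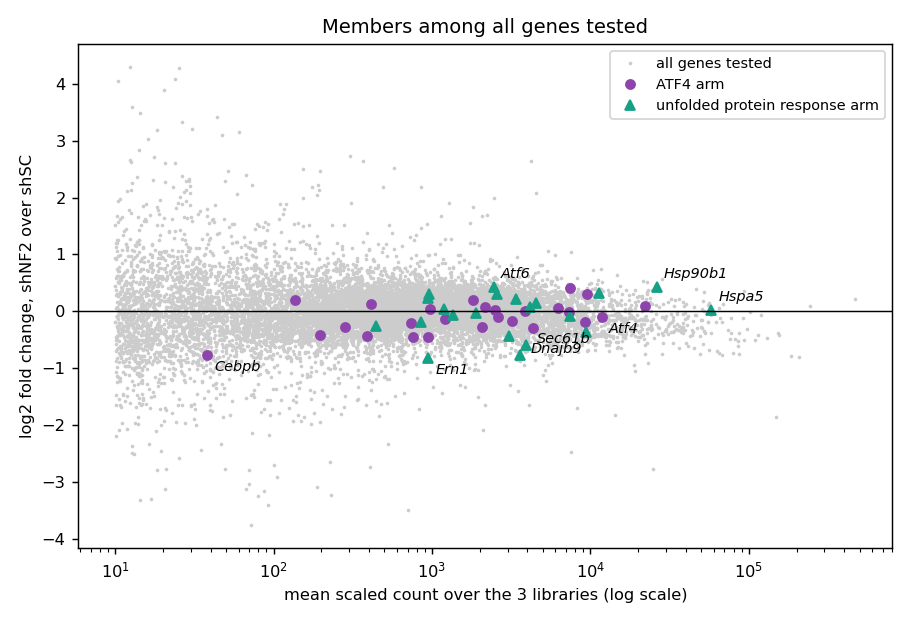
Each gene's mean scaled count over the 3 libraries (log axis) against its log2 fold change, shNF2 over shSC: 12813 genes tested in grey, 26 members of the ATF4 arm as purple circles and 21 of the unfolded protein response arm as green triangles. Members lie between -0.81 and 0.42, within the cloud of all genes, whose values run from -3.75 to 4.29.

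The size of change that these libraries allow could be bounded for most members. The 95% interval of the log2 fold change lay wholly between -1 and 1, less than 2-fold either way, for 41 of 47 members (87.2%), against 65.9% of all genes tested and 88.2% of the 8092 genes that averaged 300 scaled counts or more. These intervals rest on 1 residual degree of freedom, moderated over genes, and take the lone shSC library to vary like the shNF2 libraries. For 2 libraries against 1 the smallest p of an exact test is 0.333, and shSC has no replicate. The members' median gap between libraries 20 and 21 was 0.21 on the log2 scale (0.23 over all genes), and 24 of 47 members had a mean change larger than their own gap, 51.1% as over all genes (51.1%).

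The ATF4 arm had a median log2 fold change of -0.10, with -0.03 in library 20 and -0.13 in library 21, beside a median that rounds to 0.00 over all genes. Both shNF2 libraries lay below shSC for 13 of its 26 members, where 35.8% of all genes did, and above it for 6, where 36.1% of all genes did. The other 7 members lay on both sides. A shared side is partly fixed by the single shSC library, against which both shNF2 libraries are measured.

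**Figure D2:**
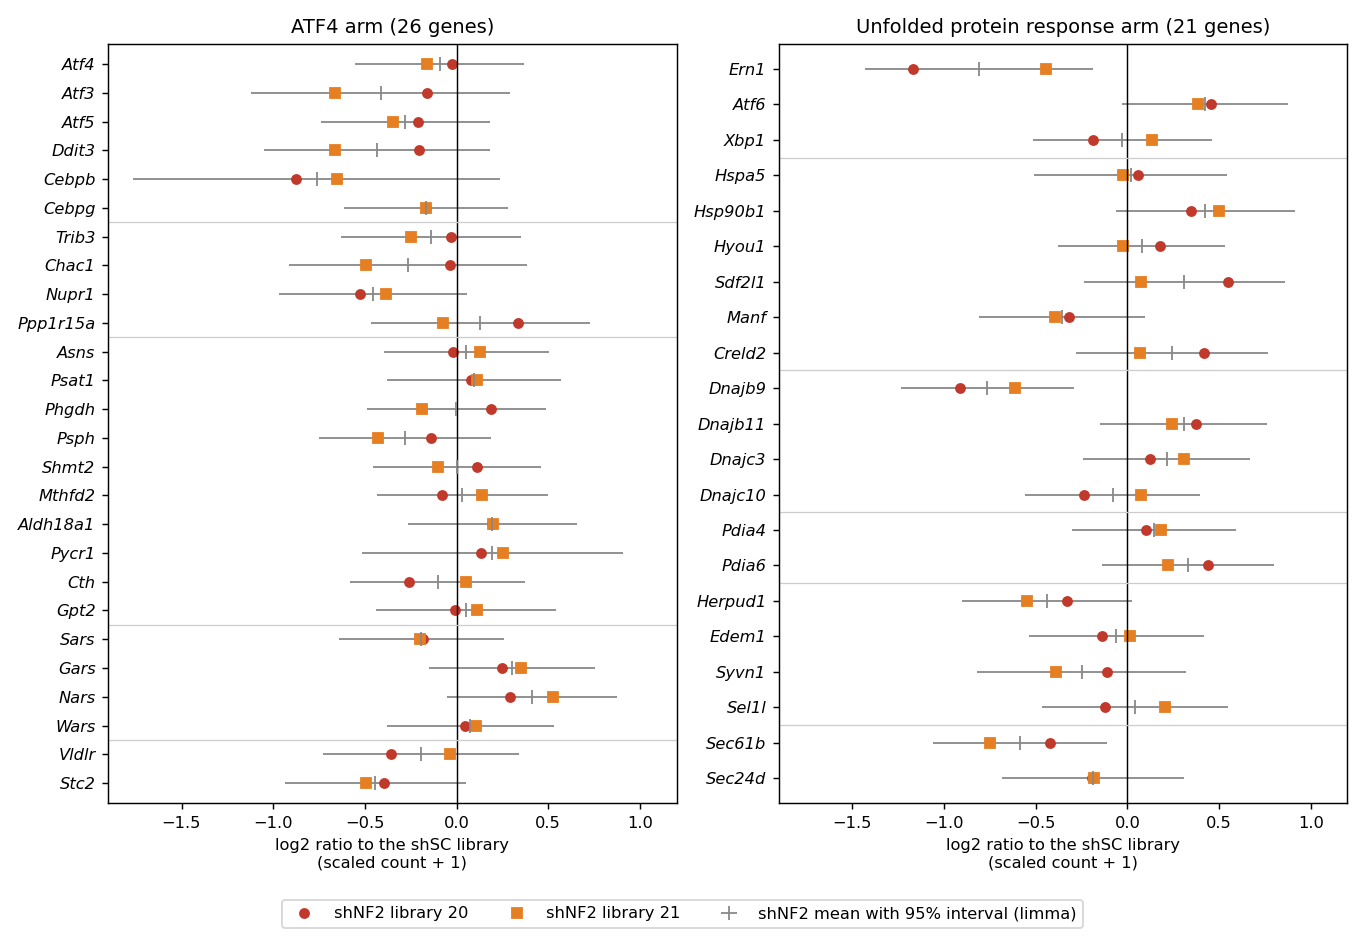
Log2 ratio to shSC of every member in shNF2 library 20 (red circles) and library 21 (orange squares), with their mean and its 95% interval from limma in grey; left, ATF4 arm; right, unfolded protein response arm; horizontal lines part the roles. The intervals of Ern1, Dnajb9 and Sec61b lie wholly below 0, and all others span it.

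Atf4 (ENSMUSG00000042406.7), the transcription factor at the head of the arm, had 12103 and 10996 scaled counts in shNF2 libraries 20 and 21, against 12298 in shSC. The 3 libraries were thus close, the log2 fold change being -0.09 ± 0.21 (SE; limma adjusted p = 0.934) and a 95% interval of -0.55 to 0.37. The other 5 basic leucine zipper genes of the arm also lay below shSC in both shNF2 libraries, so that all 6 did, where 35.8% of all genes tested lay below in both; under quantile normalization Atf4 lay on the other side of 0 (0.06) and 5 remained below. None passed the test.

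Ddit3, which encodes CHOP, a factor linked to cell death in prolonged stress, had 404 and 294 scaled counts in shNF2 against 465 in shSC. Library 21 was the lowest and library 20 lay between it and shSC (log2 fold change -0.43 ± 0.28, SE; limma adjusted p = 0.699). Atf3, a stress-induced repressor, had the same order, with 207 and 146 in shNF2 against 232 in shSC. Atf5, a relative of ATF4 that is likewise controlled through translation, had 2018 and 1832 in shNF2 against 2334 in shSC (-0.28 ± 0.21, adjusted p = 0.745), and -0.10 after correction for length and GC.

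Cebpb and Cebpg encode C/EBP factors that can pair with ATF4 on DNA. Cebpb showed the lowest fold change of the arm but rested on few reads, with 27 and 34 reads (28.2 and 33.0 scaled counts) in shNF2 against 54 reads (52.6 scaled counts) in shSC. Its log2 fold change was -0.76 ± 0.46 (SE; limma adjusted p = 0.682), and the 95% interval of -1.77 to 0.24 held both a large decrease and none. It was the only member with fewer than 100 reads in every library. Cebpg had 3058 and 3064 scaled counts in shNF2 against 3438 in shSC, with both shNF2 libraries nearly equal (-0.17).

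Among the feedback genes, Trib3, a pseudokinase that binds and restrains ATF4, had 1250 and 1075 scaled counts in shNF2 against 1276 in shSC, and library 20 was close to shSC (log2 fold change -0.14 ± 0.23, SE; limma adjusted p = 0.892). Nupr1, a small stress-induced chromatin protein, was lower in both, with 638 and 705 in shNF2 against 919 in shSC (-0.45 ± 0.24, adjusted p = 0.615). Chac1, which degrades glutathione, had 308 and 224 in shNF2 against 315 in shSC, so that library 20 was close to shSC and library 21 below it. Ppp1r15a, which encodes GADD34, the phosphatase subunit that reverses eIF2alpha phosphorylation, had 487 and 367 in shNF2 against 387 in shSC and so lay on both sides. The group's median was -0.20, and -0.03 after correction for length and GC.

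The enzymes of amino acid synthesis were close to shSC. Asns, which makes asparagine and is a classic ATF4 target, had 5966 and 6598 scaled counts in shNF2 against 6044 in shSC (log2 fold change 0.05 ± 0.21, SE; limma adjusted p = 0.961). The 10 enzymes tested ranged from -0.28 (Psph) to 0.20 (Aldh18a1), with a median of 0.04, and the interval of each lay within 2-fold either way. Of the serine pathway, Phgdh had a log2 fold change of -0.0018, Psat1 0.09 and Psph -0.28, and of its mitochondrial one-carbon branch Shmt2 had 0.0044 and Mthfd2 0.03. Phgdh sat on both sides of shSC, with 8315 and 6407 in shNF2 against 7308 in shSC. The proline enzymes Aldh18a1 and Pycr1 had 0.20 and 0.19, both above shSC in each library, and Pycr1 rested on 125 to 149 scaled counts. Cth, of cysteine synthesis, had -0.10 and the alanine aminotransferase gene Gpt2 0.05.

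The tRNA synthetase genes, whose products load amino acids onto tRNAs, lay mostly above shSC. Nars had 7440 and 8767 scaled counts in shNF2 against 6079 in shSC, both libraries above it (log2 fold change 0.41 ± 0.21, SE; limma adjusted p = 0.618). Gars had 9737 and 10461 in shNF2 against 8190 in shSC (0.30 ± 0.21, adjusted p = 0.72). Wars had 0.08 and Sars -0.19, with 8916 and 8814 in shNF2 against 10121 in shSC. None of the 4 passed.

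A further list of 16 cytosolic synthetases outside the members pointed the same way. Of these 14 lay above shSC in both shNF2 libraries and 0 below it in both, beside 36.1% and 35.8% of all genes tested, the median being 0.25 (library 20, 0.26; library 21, 0.23), and 0 passed the test or had an unadjusted p under 0.05. With the 4 members, 17 of 20 were above shSC in both and 1, Sars, below; counts were the same with TMM and quantile scaling, and 18 and 1 after correction for transcript length and GC. Hars had 2086 and 2131 scaled counts in shNF2 against 1609 in shSC, Farsb had a log2 fold change of 0.43 and Lars 0.36. The interval of each of the 16 lay within 2-fold either way.

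Both remaining members of the ATF4 arm act at the cell surface or outside it. Stc2, a secreted glycoprotein hormone, had 869 and 814 scaled counts in shNF2 against 1144 in shSC, and both libraries were lower by similar amounts (log2 fold change -0.44 ± 0.23, SE; limma adjusted p = 0.608). Vldlr, a lipoprotein receptor, had 626 and 782 in shNF2 against 801 in shSC, with library 21 close to shSC (-0.20).

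**Figure D3:**
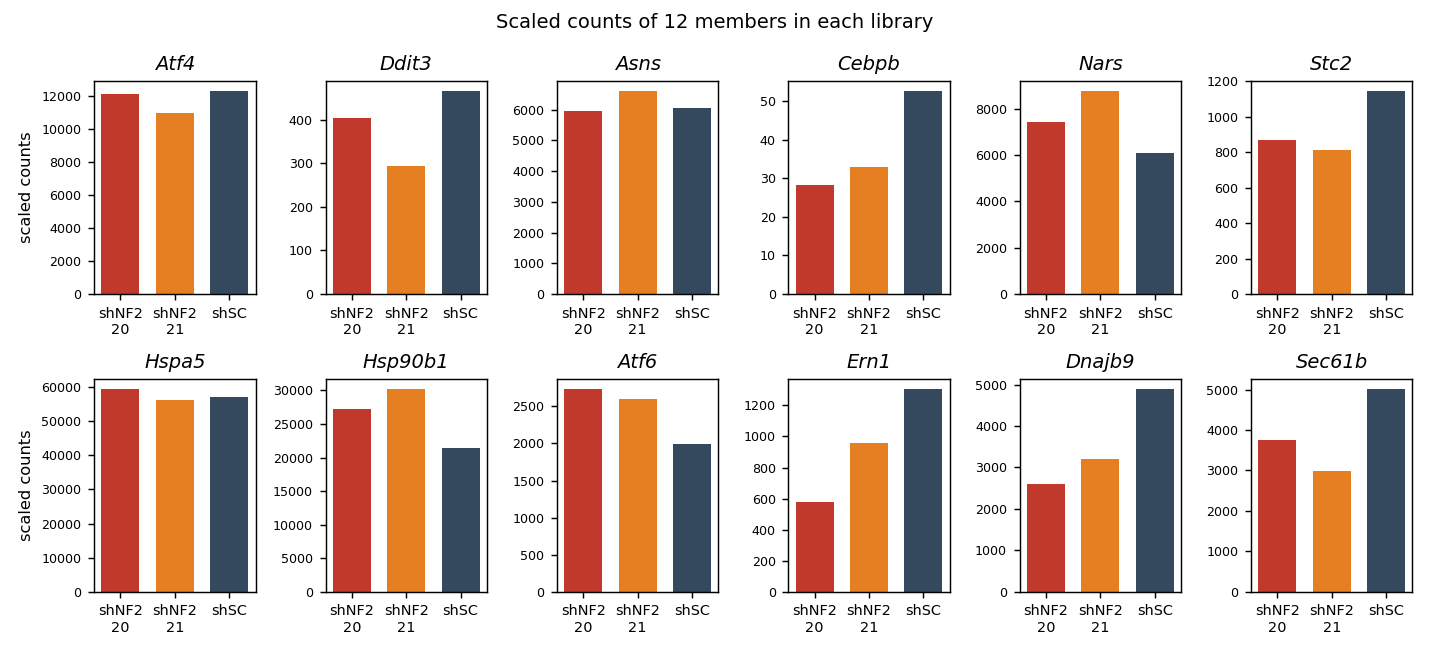
Scaled counts of 12 members in shNF2 library 20 (red), shNF2 library 21 (orange) and shSC (dark blue), 1 bar per library, each panel with its own axis from 0. Hspa5, Asns and Atf4 are close in all 3 libraries, while Dnajb9, Ern1 and Sec61b are lower in both shNF2 libraries.

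Members of the unfolded protein response arm lay on either side of shSC. The median log2 fold change was 0.02, with -0.11 in library 20 and 0.07 in library 21, so its sign differed between the libraries; it was -0.08 after correction for length and GC. Both shNF2 libraries lay above shSC for 8 of 21 members (38.1%) and below it for 7 (33.3%), near the shares of 36.1% and 35.8% over all genes, and 6 lay on both sides.

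The sensor genes differed in side. Ern1 (ENSMUSG00000020715.9), which encodes IRE1, had 580 and 958 scaled counts in shNF2 libraries 20 and 21, against 1307 in shSC. Both shNF2 libraries were lower, but they differed from each other by 0.72 on the log2 scale, nearly as much as the mean change of -0.81 ± 0.29 (SE; limma adjusted p = 0.341), and the log2 ratio to shSC was -1.17 in library 20 and -0.45 in library 21. By unadjusted p it ranked 550 of 12813 genes.

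Atf6 had 2737 and 2606 scaled counts in shNF2 against 1993 in shSC. Both libraries were higher by similar amounts (log2 fold change 0.42 ± 0.21, SE; limma adjusted p = 0.584), with a 95% interval of -0.03 to 0.88, and 0.28 after correction for length and GC. Xbp1, the target of IRE1 splicing, had 1679 and 2100 in shNF2 against 1913 in shSC, 1 library on each side (-0.03 ± 0.23, adjusted p = 0.981). Gene counts do not part its spliced from its unspliced mRNA. Eif2ak3, which encodes PERK and is not a member, had 249 and 273 in shNF2 against 273 in shSC (-0.06).

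The chaperone best known as a readout of the response was close to shSC in each shNF2 library. Hspa5 (ENSMUSG00000026864.13), which encodes BiP, the Hsp70 chaperone that also holds the sensors inactive, had 59503 and 56284 scaled counts in shNF2 libraries 20 and 21, against 57195 in shSC. The libraries lay on both sides of shSC, the log2 fold change being 0.02 ± 0.24 (SE; limma adjusted p = 0.991) and a 95% interval of -0.51 to 0.54. Hsp90b1, which encodes GRP94, the Hsp90 of the same compartment, had 27162 and 30231 in shNF2 against 21348 in shSC. Both libraries were above shSC (0.42 ± 0.23, adjusted p = 0.626). With quantile normalization Hspa5 had a log2 fold change of 0.21 and Hsp90b1 0.61. After correction for length and GC they had -0.10 and 0.41.

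Of the other chaperones and small secretory factors, Hyou1, a nucleotide exchange factor for BiP, had a log2 fold change of 0.08. Sdf2l1 and Creld2, both induced by endoplasmic reticulum stress, had 0.31 and 0.24, and each was higher in library 20 than in library 21. Sdf2l1 had 1188 and 855 scaled counts in shNF2 against 813 in shSC, and Creld2 1116 and 874 in shNF2 against 834 in shSC, so library 21 was close to shSC in both. Manf, a secreted protective factor, was lower in each library, with 8836 and 8378 in shNF2 against 11022 in shSC (-0.36). With Hspa5 and Hsp90b1, 3 of the 6 genes of this group lay above shSC in both libraries and 1 below. Over all genes tested these shares were 36.1% and 35.8%. With quantile normalization the group's counts were 5 and 1.

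Dnajb9 had the smallest p of all members. This gene (ENSMUSG00000014905.3) encodes ERdj4, a J-domain partner of BiP that binds IRE1 and is itself induced by spliced XBP1. It had 2598 and 3196 scaled counts in shNF2 libraries 20 and 21, against 4897 in shSC. Both were lower, with log2 ratios to shSC of -0.91 and -0.62, a log2 fold change of -0.76 ± 0.22 (SE) and a 95% interval of -1.24 to -0.29. It ranked 291 of 12813 by p and missed the threshold (limma adjusted p = 0.174); across alternatives its adjusted p ran from 0.0574, after correction for length and GC, to 0.654 with quantile normalization.

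The other J-domain genes stood elsewhere. Dnajb11, a BiP partner with substrate-binding ability, had 2867 and 2617 scaled counts in shNF2 against 2213 in shSC (log2 fold change 0.31). Dnajc3, which encodes the BiP partner p58IPK, had 3307 and 3766 in shNF2 against 3042 in shSC (0.21), and Dnajc10, a disulfide reductase, had -0.08 with 1 library on each side. So 2 of the 4 were above shSC in both libraries and 1, Dnajb9, below. The disulfide isomerase genes Pdia4 and Pdia6 had 0.14 and 0.33, and Pdia6 had 13038 and 11193 in shNF2 against 9604 in shSC.

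Of 4 genes of endoplasmic reticulum associated degradation, 2 lay below shSC in both libraries and 2 on either side. Herpud1, a membrane scaffold of that machinery, had 2958 and 2538 scaled counts in shNF2 against 3713 in shSC, both libraries lower (log2 fold change -0.44 ± 0.21, SE; limma adjusted p = 0.575). Syvn1, the ubiquitin ligase HRD1, had 455 and 375 in shNF2 against 492 in shSC (-0.25). Its partner Sel1l had 0.04 and the mannosidase-like Edem1 -0.06, each with 1 library on either side.

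Of the genes for entry into the compartment and export from it, Sec61b (ENSMUSG00000053317.11), a small subunit of the protein-conducting channel, had 3745 and 2985 scaled counts in shNF2 libraries 20 and 21, against 5019 in shSC. Both were lower, library 21 the more so, with a log2 fold change of -0.59 ± 0.22 (SE), a 95% interval of -1.06 to -0.11 and limma adjusted p = 0.384. Sec24d, a cargo adaptor of the COPII coat, had 808 and 816 in shNF2 against 924 in shSC (-0.19).

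Other genes of the same pathways, listed by function and not among the members, gave 0 calls in limma among 95 tested in 9 lists, where 0.843% of all genes passed. edgeR and DESeq2 also called 0, where they called 0.632% and 0.765% of all genes. In limma 4 of the 95 had an unadjusted p under 0.05, where 9.27% of all genes did. These lists and the members are compared in the plot of list medians. Over all genes tested, 36.1% lay above shSC in both shNF2 libraries and 35.8% below it in both. Among 9 eIF2alpha kinases, cofactors and phosphatase genes, 4 lay above and 3 below shSC in both libraries; Gcn1l1, which helps activate the amino acid sensor kinase GCN2, had 682 and 608 scaled counts in shNF2 against 1060 in shSC (log2 fold change -0.72, limma adjusted p = 0.28), while Eif2ak4, encoding GCN2 itself, had 0.38. Of 9 amino acid transporters 7 were above and 1 below, with a median of 0.14; the cystine transporter gene Slc7a11 had 0.14 and the glycine transporter gene Slc6a9 -0.55.

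Among 12 further ATF4 targets 4 (33.3%) were above and 3 (25.0%) below shSC in both libraries, where 36.1% and 35.8% of all genes were. After correction for length and GC 7 were above and 3 below, and with TMM scaling 3 and 3. Vegfa, which encodes a vascular growth factor, had 1301 and 1581 scaled counts in shNF2 against 2706 in shSC (log2 fold change -0.91 ± 0.22, SE; limma adjusted p = 0.0963). Both libraries were well below shSC, and without the filter on low values, where 1.66% of genes passed, it did too (adjusted p = 0.0284); its adjusted p reached 0.615 with quantile normalization. Gdf15, a secreted stress factor, split by library, with 294 and 127 in shNF2 against 300 in shSC.

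**Figure D4:**
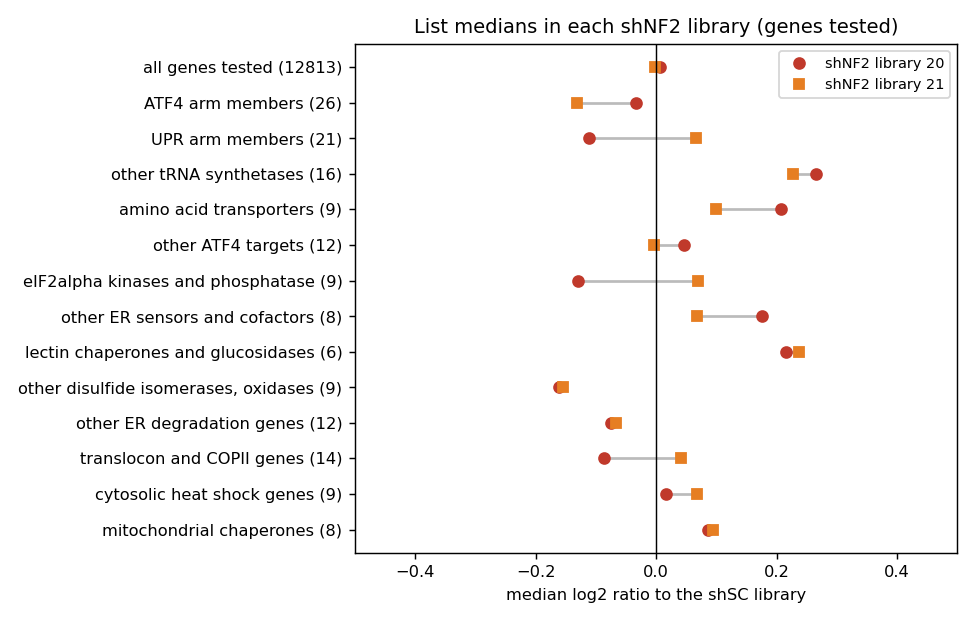
Median log2 ratio to shSC of each list in shNF2 library 20 (red circles) and library 21 (orange squares), with the number of genes tested in brackets. The tRNA synthetases outside the members lie at 0.26 and 0.23, the members of the unfolded protein response arm on either side of 0, and all genes tested near 0.

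In the endoplasmic reticulum lists, 4 of 6 lectin chaperone and glucosidase genes lay above shSC in both libraries and 0 below it. Over all genes tested, 36.1% lay above shSC in both and 35.8% below it in both. The median of these 6 was 0.24, with Ganab at 0.31 and Uggt1 at 0.35. Of 9 other disulfide isomerases and oxidases 3 were above and 5 below, with P4hb at -0.36 and Ero1l at -0.47. Of 12 other degradation genes 4 (33.3%) were above and 5 (41.7%) below, near those shares, with Vcp at 0.47 and Erlec1 at -0.34. Sec61g, another small channel subunit, had 4264 and 4646 scaled counts in shNF2 against 7605 in shSC (-0.77 ± 0.21, SE; limma adjusted p = 0.145). It stood beside Sec61b on the low side, and the translocon-associated gene Ssr4 had -0.64, whereas the large subunit gene Sec61a1 had -0.10 and Sec63 0.44. These 14 translocon and COPII genes had a median of -0.0040 (0.0062 with quantile normalization), with 4 above and 5 below. Of 8 other sensors and cofactors 4 were above and 1 below.

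Chaperones of other compartments also lay on either side of shSC. Of 9 cytosolic heat shock genes 4 (44.4%) were above and 3 (33.3%) below shSC in both libraries. Over all genes tested these shares were 36.1% and 35.8%. The median of the heat shock genes was -0.04 and turned to 0.08 with quantile normalization. Hsp90aa1 had 29414 and 34587 scaled counts in shNF2 against 21407 in shSC (log2 fold change 0.58, limma adjusted p = 0.438) and Hspa8 -0.06. Of 8 mitochondrial chaperones and proteases 5 were above and 2 below, with a median of 0.08, Hspa9 at 0.44 and Hspe1 at -0.40.

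Library 21 differed from library 20 in relation to GC content, and the members took part in this. Mouse transcripts were not used here, so GC and length are those of human transcripts of the same genes as stand-ins, which all 47 members had. Each stand-in is a median over a gene's protein-coding transcripts, and short ones were not set apart. Some lengths are therefore short, such as 584 bases for Nars and 1127 for Hsp90b1. The correction for length and GC rests on these stand-ins. Across the 47 members the log2 ratio of library 21 to library 20 had a Spearman's rho of -0.477 with GC, and across 10356 genes tested it was -0.419; the points share the libraries and are a description only. Sdf2l1 and Creld2, with stand-in GC of 65.5% and 59.8%, were higher in library 20, and Dnajc10, at 37.6%, was higher in library 21 (8131, against 6552 in library 20). Other members went against this relation. Cebpb, at 66.2%, and Ern1, at 56.1%, were higher in library 21, and Atf6, at 41.3%, was higher in library 20. Against shSC, rho was 0.07 for library 20 and -0.337 for library 21 across the members. After correction for length and GC 0 members passed and 7 (14.9%) had an unadjusted p under 0.05, near the 12.1% of the 10358 genes in that fit. Of the 7, 5 were in the unfolded protein response arm and 2, Nupr1 and Stc2, in the ATF4 arm. In that fit Dnajb9 had a log2 fold change of -0.89, Ern1 -0.82 and Sec61b -0.60.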

How the data were processed

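Libraries were made from polyA-selected RNA with a stranded kit and read as pairs, per the labels' protocols. The authors deposited 1 table of gene signal, as scaled counts. Tools listed, without a role, by the submitters' processing notes are STAR 2.5.0a, cutadapt 1.6, DESeq 1.22.1 and HTSeq 0.5.3; the build is mm10. Per the deposited values, 100% came out as whole reads (tolerance 0.001) with factors of 0.956, 1.03 and 1.03 for library 20, library 21 and shSC. A further 4 rows naming no gene, among them reads aligned to more than 1 place, held 48.7%, 47.7% and 48.6% of the signal and were left out. For the use of strand in counting, the setting was not given in sources used here; reads of overlapping antisense genes cannot be told apart.

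The test was limma 3.58.1 in R 4.3.3, with trended variances, applied to log2(scaled count + 1) of the 12813 genes whose mean reached 10. P-values were adjusted over all of these (threshold 0.05; 11.9 prior degrees of freedom). This scale understates fold changes of low genes. edgeR called 81 genes and DESeq2 98 on the recovered reads. Alternatives were other pseudocounts, filters, scalings and variance settings, edgeR 4.0.16, DESeq2 1.42.0, each shNF2 library left out and, added after seeing the data, a length and GC correction with mgcv 1.9.3 on 10358 genes with human GENCODE stand-ins. The steps were also run on simulated data with known changes. Those changes were larger than that of any member, so the run does not show what could be detected at the members' sizes.

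Members and lists were chosen with earlier results of these data known. Given in full were 8 genes fixed by name and the 6 per arm with the largest smaller log2 ratio of 1 sign in both libraries. Of each other list up to 3 such genes were named; Eif2ak3, Gdf15, Slc7a11, Sec61a1 and Hspa8 were named after their values were seen. No mouse sequence or coordinate is given. Levels are not compared between genes, since no mouse transcript lengths were used.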

Additional observations from a re-analysis of the deposited data

How the results depend on the processing

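No member passed the threshold in limma, edgeR or DESeq2 or under any of the 11 alternatives with a test. At an unadjusted p under 0.05 there were 2 to 7 members. The 7 (14.9%) came from the length and GC correction, where 12.1% of all genes were under that limit. The count of 2 (4.26%) came with quantile normalization (6.88% of all genes) and without a variance trend (8.09%). With quantile normalization the 2 were Dnajb9 and Hsp90b1, the latter higher in shNF2 (log2 fold change 0.61). Ern1 and Sec61b were not under the limit there. Without a variance trend Cebpb had the smallest p of the members. DESeq2 had the lowest share of all genes, 5.56%, beside 6.38% of the members. Over all genes, 108 passed, against 232 without the filter on low values, 0 without a variance trend and 0 with quantile normalization; these last settings left 1036 and 882 genes at an unadjusted p under 0.05. The median of the ATF4 arm ran from -0.13 to -0.03 when 1 shNF2 library was left out, and that of the unfolded protein response arm was 0.0665 without library 20 and -0.11 without library 21; with 1 library against 1 these are values with no test, and shSC, being alone, could not be left out. Of 197 tested values of the 18 members given in full, 4 changed sign, all near 0: Atf4 had 0.056 with quantile normalization, and after length and GC correction Trib3 had 0.038, Asns -0.0113 and Hspa5 -0.0975. The causes were not tested. Cebpb had the fewest reads of the members, with 27 in library 20, 34 in library 21 and 54 in shSC. No paired analysis was possible because there was only 1 shSC library and no label pairs it with a shNF2 library.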
